A study of Mus musculus with 4 samples.

Results

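This account covers 10 genes that make, degrade or sense prostaglandins and related lipids, taken by symbol from the 22609 genes counted in hippocampus after global cerebral ischemia. They are the phospholipase gene Pla2g4a, the lipase gene Mgll, the cyclooxygenase genes Ptgs1 and Ptgs2, the synthase genes Ptges, Ptges2 and Ptgds, the inactivating enzyme gene Hpgd, the receptor gene Ptger4 and the leukotriene gene Alox5ap. All 10 had enough reads to be tested. The mice were ovariectomized females (1 week before ischemia), in which both common carotid arteries were closed for 20 min, and hippocampal RNA was taken after 24 h of reperfusion. The 2 FLOX-control libraries came from mice of the floxed line, and the 2 GFAP-ARO-KO libraries from mice in which Cre driven by the Gfap promoter is meant to delete Cyp19a1, the aromatase gene, in astrocytes. Ovariectomy, ischemia and reperfusion were common to all 4 libraries, and no sham group was analysed here, so a difference in the response to ischemia cannot be told apart from a difference before it. The sources used here do not give age, strain or whether each library is a separate animal, so the p-values measure only the spread between these libraries.

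Prostaglandins are lipid signals made from arachidonic acid, which phospholipases cut from membranes and which, in brain, also comes from the breakdown of endocannabinoids. Cyclooxygenases turn arachidonic acid into prostaglandin H2, terminal synthases turn that into prostaglandin E2, D2 and other prostanoids, and receptors on the cell surface read them until Hpgd inactivates them. In a second branch, 5-lipoxygenase and its helper protein Alox5ap make leukotrienes. In brain, cyclooxygenase 2 is known from excitatory neurons and rises after ischemia, whereas cyclooxygenase 1 is best known from microglia.

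The libraries held 27930696 to 34878375 reads assigned to genes, and a count of 0 allows a level of up to 0.0854 to 0.106 CPM (reads scaled to a common library size, with TMM factors). Cyp19a1 gave 3 and 2 reads in the FLOX controls against 1 and 9 in the knockouts, too few to test, so it does not check the genotype labels. All 6 listed genes of hippocampal neurons were present, with a summed level of 556 to 579 CPM in each library. The sum hides changes both ways, as 2 of the 6 rose and 1 fell in the knockout. Of all tested genes, 9.39% were higher and 11.0% lower. The second knockout library stood apart. Its summed level of 10 markers of meningeal fibroblasts was 492 CPM, against 107 and 151 in the controls and 117 in the first knockout library, and each of the 10 was highest there. Markers of microglia were lower in both knockout libraries, where 9 of 10 fell, against 11.0% of all tested genes. The sum of these 10 was 276 and 288 CPM there, against 518 and 580 CPM in the controls. In bulk tissue, fewer cells of a type and less RNA per cell cannot be told apart.

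Of the 10 genes, 4 fell in the knockout (Hpgd, Pla2g4a, Ptgs2 and Ptgs1), none rose and 6 did not pass, by edgeR's quasi-likelihood test with Benjamini-Hochberg adjustment over 15011 genes at a threshold of 0.05. Hpgd was 3.27-fold lower, Pla2g4a 2.49-fold, Ptgs2 1.98-fold and Ptgs1 1.93-fold. The 4 that fell are the phospholipase gene, both cyclooxygenase genes and the gene of the inactivating enzyme, whereas the lipase gene Mgll did not pass. In the same test 20.4% of all genes were called, 11.0% lower and 9.39% higher. At an unadjusted p under 0.05, 0 of the 10 were higher. Calls by limma-voom and DESeq2 were also 0 higher, against 1307 and 1452 of the 15011 tested genes. A count of 0 of 10 is near those shares. The median log2 fold change of the 10 was -0.34, and that of all tested genes was -0.00081. Both knockout values lay below both control values for 5 of the 10, against 32.8% of all tested genes, and above them for 1 of the 10, against 32.0%. Leaving out the first control library lowered the number that fell to 3 (Pla2g4a did not pass), and leaving out the second to 2 (neither Ptgs1 nor Pla2g4a passed). It was 5 without the first knockout library.

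**Figure D1:**
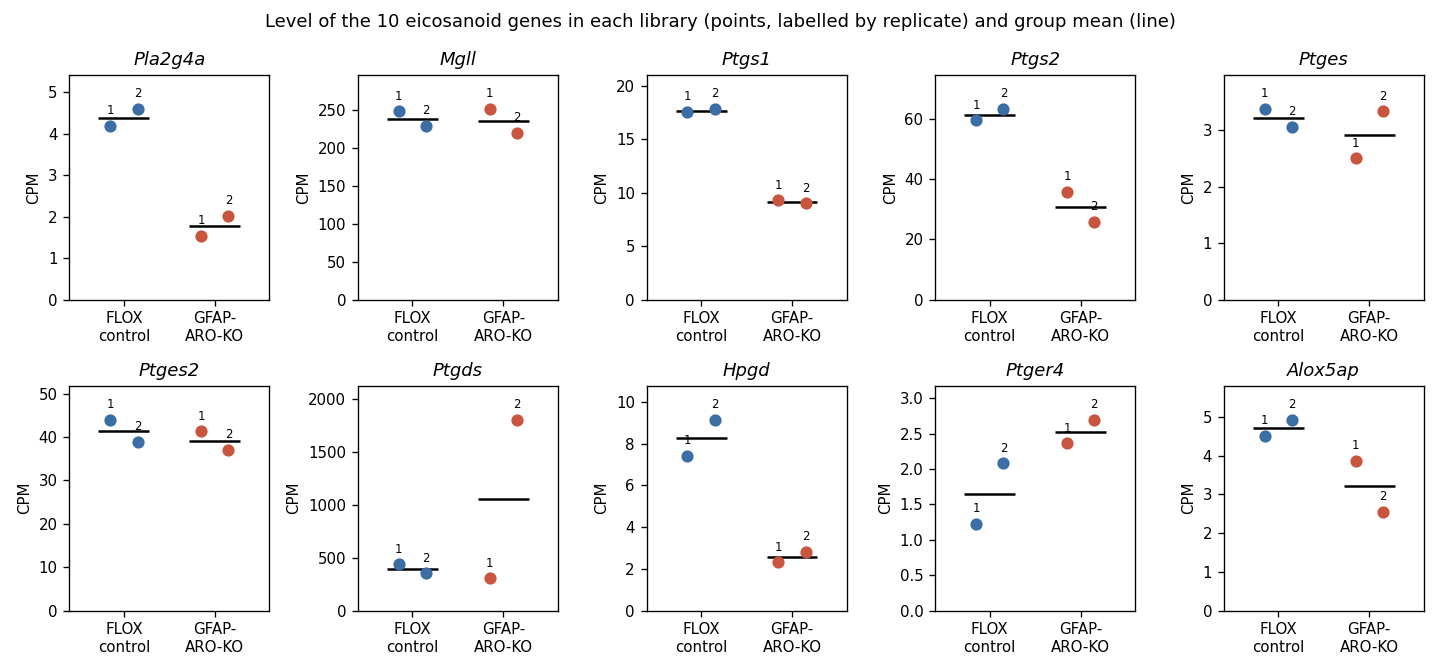
CPM of each of the 10 genes in every library (points, numbered by replicate) and the group mean (line), on linear axes that start at 0. The knockout values of Pla2g4a, Ptgs1, Ptgs2 and Hpgd all lie below the control values, and Ptgds is high in the second knockout library alone.

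The promoters of the 4 genes that fell are shown because these genes moved in the same direction. Each window runs from 250 bases before the annotated start to 50 bases after it, 5′ to 3′, from RefSeq on GRCm38.p6, and capitals mark matches to the motifs searched. Of the 10 genes, 9 had a window in that table, and of the 2 windows of Pla2g4a the one farther upstream is printed.
Ptgs2 (chr1:150099781-150100080, plus strand): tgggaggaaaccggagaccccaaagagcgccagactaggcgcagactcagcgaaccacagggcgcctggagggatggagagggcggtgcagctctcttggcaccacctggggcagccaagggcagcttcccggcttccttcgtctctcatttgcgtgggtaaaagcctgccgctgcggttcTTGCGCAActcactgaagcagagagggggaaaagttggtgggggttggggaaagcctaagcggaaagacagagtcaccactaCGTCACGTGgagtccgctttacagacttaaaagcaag
Ptgs1 (chr2:36230176-36230475, plus strand): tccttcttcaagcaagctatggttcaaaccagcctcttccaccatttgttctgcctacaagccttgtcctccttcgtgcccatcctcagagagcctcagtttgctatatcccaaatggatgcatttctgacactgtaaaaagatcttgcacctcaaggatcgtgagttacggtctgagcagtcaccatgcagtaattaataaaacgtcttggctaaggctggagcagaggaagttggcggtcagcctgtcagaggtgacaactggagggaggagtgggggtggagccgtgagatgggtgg
Hpgd (chr8:56294302-56294601, plus strand): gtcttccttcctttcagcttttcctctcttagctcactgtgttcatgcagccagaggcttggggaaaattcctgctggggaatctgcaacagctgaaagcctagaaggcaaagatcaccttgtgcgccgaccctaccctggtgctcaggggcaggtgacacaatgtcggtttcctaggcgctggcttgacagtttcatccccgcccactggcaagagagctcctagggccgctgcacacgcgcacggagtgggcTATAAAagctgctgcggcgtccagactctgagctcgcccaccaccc
Pla2g4a (chr1:149961241-149961540, minus strand): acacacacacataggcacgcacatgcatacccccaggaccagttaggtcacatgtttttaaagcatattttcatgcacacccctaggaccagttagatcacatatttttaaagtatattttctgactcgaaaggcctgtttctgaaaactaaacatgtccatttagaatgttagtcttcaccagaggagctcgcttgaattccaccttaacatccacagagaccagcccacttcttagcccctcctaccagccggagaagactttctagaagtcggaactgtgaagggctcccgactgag
Both strands were searched for CGTCA (the core of the cyclic AMP response element), CACGTG (an E-box), TTGCGCAA (C/EBP), TGANTCA (AP-1), TTCCNGGAA (STAT), TATAAA, the palindromic consensus of the estrogen response element and the NF-kappaB consensus. Ptgs2 held CGTCA from base 14 after the start, which shares 2 bases with a CACGTG from base 17, and TTGCGCAA from base 69 before it. Of 32851 windows of this length, 20.8% held CGTCA, 7.15% CACGTG and 0.183% TTGCGCAA. Hpgd held TATAAA from base 5, as did 13.6% of windows with that motif anywhere, and neither Ptgs1 nor Pla2g4a held any of the 8. Among the genes not called, Ptges2 and Mgll also held CACGTG, and Ptgds held TGANTCA and the NF-kappaB consensus. The estrogen response element consensus was in 0.07% of all windows and in 0 of the 9 windows of these genes. A match is a description of letters, and no factor's binding was measured.

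Pla2g4a encodes cytosolic phospholipase A2, which frees arachidonic acid from membranes when calcium rises. The gene lies on chromosome 1 (151676748 to 151808420, minus strand, NCBIM37, the assembly of mm9) and is 139 kb from Ptgs2. Its level was 4.18 and 4.59 CPM in the controls against 1.54 and 2.02 CPM in the knockouts, from 140, 150, 54 and 57 reads. The groups did not overlap. Pla2g4a fell by 1.32 ± 0.25 (log2 fold change ± SE, edgeR adjusted p = 0.0130), but did not pass without the first control library (adjusted p = 0.0612) or the second (0.0892). Mgll encodes monoacylglycerol lipase, which breaks down the endocannabinoid 2-arachidonoylglycerol and is a main source of arachidonic acid in brain. It was at 248 and 229 CPM in the controls against 251 and 220 CPM in the knockouts. The groups overlapped, with a log2 fold change of -0.02 ± 0.11 (adjusted p = 0.920) whose sign turned with upper-quartile scaling and with some libraries left out.

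Ptgs1 encodes cyclooxygenase 1, the form that most tissues make at a steady level (chromosome 2, 36085946 to 36107792, plus strand, NCBIM37). Its values were 17.6 and 17.8 CPM in the controls against 9.28 and 9.0 CPM in the knockouts. Libraries within a group lay close together and far from the other group. Ptgs1 fell by 0.95 ± 0.14 (edgeR adjusted p = 0.00605), with adjusted p = 0.0501 without the second control library and a log2 fold change between -0.97 and -0.92 whichever library was left out. Ptgs2 encodes cyclooxygenase 2, the inducible form (chromosome 1, 151947254 to 151955140, plus strand). It was at 59.5 and 63.3 CPM in the controls against 35.9 and 25.8 CPM in the knockouts. All knockout values were below the controls, and the second knockout library was the lowest. Ptgs2 fell by 0.99 ± 0.16 (adjusted p = 0.00776), or by 0.76 without the second knockout library and 1.25 without the first, and passed under all 13 alternatives.

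The balance between both cyclooxygenases differed by less than the spread between libraries. On the scale of CPM per kilobase of exon, Ptgs2 held 76.1% and 76.9% of their summed level in the controls against 78.4% and 72.9% in the knockouts. The knockout libraries lay on either side of the controls. Ptgs1 amounted to 3.39% and 3.07% of the summed level of the 10 microglial markers in the controls, and to 3.36% and 3.13% in the knockouts, where the groups overlapped. For Hpgd this share was 1.43% and 1.58% in the controls against 0.835% and 0.974% in the knockouts, without overlap. For Pla2g4a it was 0.807% and 0.791% against 0.557% and 0.703%, and for Ptgs2 11.5% and 10.9% against 13.0% and 8.99%. For Alox5ap, which was not called, it was 0.870% and 0.849% against 1.40% and 0.888%, with both knockout values above the controls. What the microglial markers contribute to the levels of these genes was not tested.

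**Figure D2:**
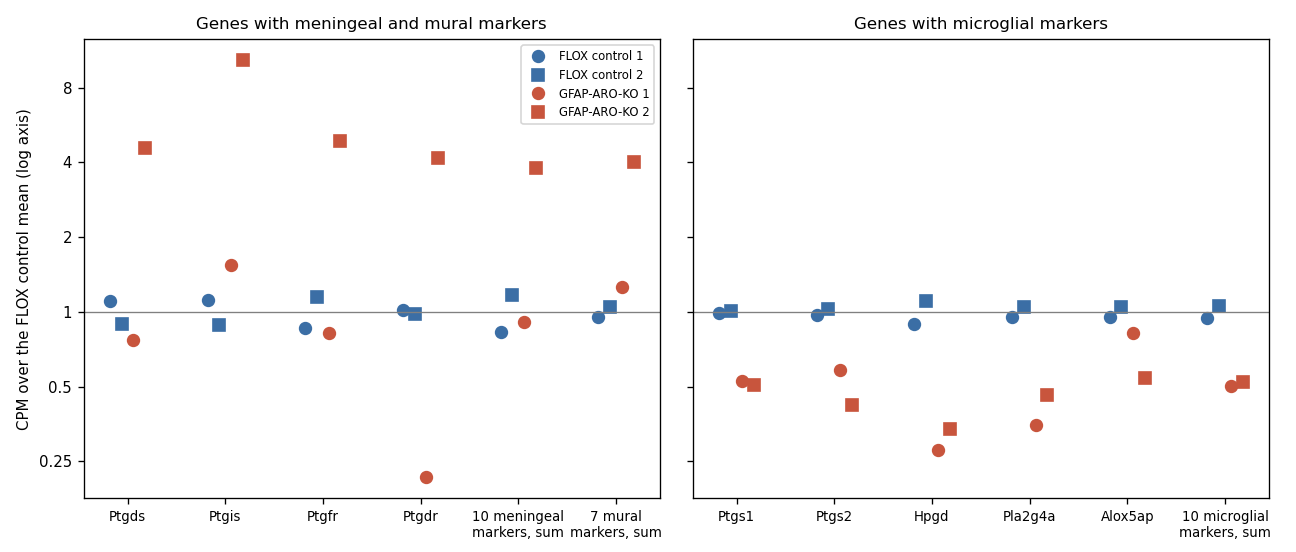
Level in each library over the mean of the FLOX controls (log axis), for genes beside meningeal and mural markers (left) and beside microglial markers (right). On the left, the second knockout library is above the other 3 in every column. On the right, Ptgs1 and the sum of 10 microglial markers both sit near 0.5 in each knockout library, at 0.525 and 0.509 for Ptgs1, and Hpgd sits lower, at 0.278 and 0.338.

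The genes of prostaglandin E2 synthesis did not pass. Ptges encodes the inducible microsomal synthase that is coupled to cyclooxygenase 2. It gave 3.37 and 3.06 CPM in the controls against 2.51 and 3.33 CPM in the knockouts, from 88 to 113 reads (log2 fold change -0.16 ± 0.25, edgeR adjusted p = 0.685). Ptges2, the second membrane-associated synthase, gave 44.0 and 38.9 CPM against 41.3 and 37.0 CPM (log2 fold change -0.08 ± 0.12, adjusted p = 0.668). For each of these genes the groups overlapped, and the sign turned with 1 library left out. Of the 50-base windows in the exons of Ptges, 87.4% occur once in the genome, so some of its reads may have been dropped as aligning to several places. For the other 9 genes all windows were found once.

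Ptgds encodes lipocalin-type prostaglandin D synthase, one of the most abundant transcripts of the leptomeninges, which is also made by oligodendrocytes and choroid plexus. It was the most abundant of the 10 (chromosome 2, 25322229 to 25325566, minus strand), at 438 and 352 CPM in the controls against 305 and 1805 CPM in the knockouts. The first knockout library was the lowest of the 4, and the second was 4.57 times the control mean. Its log2 fold change of 1.42 ± 1.00 did not pass (edgeR adjusted p = 0.406). It was -0.36 (adjusted p = 0.129) without the second knockout library and 2.19 (adjusted p = 1.10e-05) without the first, the only alternative under which any of the 10 genes was called higher. In summed level the second knockout library was 3.80 times the control mean for the meningeal markers and 4.01 times for 7 markers of mural cells. It was 1.66 times for 8 choroid plexus markers and 0.908 times for 8 oligodendrocyte markers. All 10 meningeal markers were highest there, but only 4 of the 7 mural and 4 of the 8 choroid plexus markers were. The mural sum there was 292 CPM, of which Acta2 held 114 CPM, against 8.18 and 6.82 CPM of Acta2 in the controls. Prostaglandin genes outside the 10 that were also far higher in the second knockout library than in the other 3 were Ptgis (prostacyclin synthase), the receptor gene Ptgfr and the receptor gene Ptgdr, at 10.3, 4.89 and 4.16 times the control mean in that library and at 1.55, 0.818 and 0.215 times in the first knockout library. These 3 were singled out after their values were seen, and none passed edgeR's test with all libraries (adjusted p from 0.167 to 0.572), whereas DESeq2 called Ptgis (adjusted p = 0.00381). Without the first knockout library all 3 passed (adjusted p from 2.11e-05 to 0.00444). What the meningeal and mural markers contribute to these values was not tested.

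Hpgd encodes 15-hydroxyprostaglandin dehydrogenase, which starts the inactivation of prostaglandin E2 (chromosome 8, 58773349 to 58799843, plus strand, NCBIM37). Its level was 7.44 and 9.15 CPM in the controls against 2.31 and 2.80 CPM in the knockouts, from 249, 299, 81 and 79 reads. Both knockout values were less than every control value, and the gap was wider than the spread within either group. Hpgd fell by 1.71 ± 0.23 (edgeR adjusted p = 0.00415), the largest change among the 10 that passed, and it passed under all 13 alternatives with a log2 fold change from -1.84 to -1.55. Prostaglandins themselves were not measured.

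Ptger4 encodes the EP4 receptor for prostaglandin E2. It gave 1.22 and 2.08 CPM in the controls against 2.36 and 2.69 CPM in the knockouts, from 41 to 83 reads. The knockout values were above the controls, but the log2 fold change of 0.61 ± 0.32 did not pass (edgeR adjusted p = 0.205), and it ranged from 0.28 to 1.04 with 1 control library left out. In the annotation 1097 of its 6648 exon bases overlap genes on the other strand, among them Ttc33, and the sources used here do not give the counting's strand setting. Alox5ap encodes the protein that presents arachidonic acid to 5-lipoxygenase. Its values were 4.51 and 4.92 CPM in the controls against 3.87 and 2.55 CPM in the knockouts, where both lay below the controls. The log2 fold change was -0.53 ± 0.25 (adjusted p = 0.169). It passed without the first knockout library alone (log2 fold change -0.88, adjusted p = 0.0263).

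**Figure D3:**
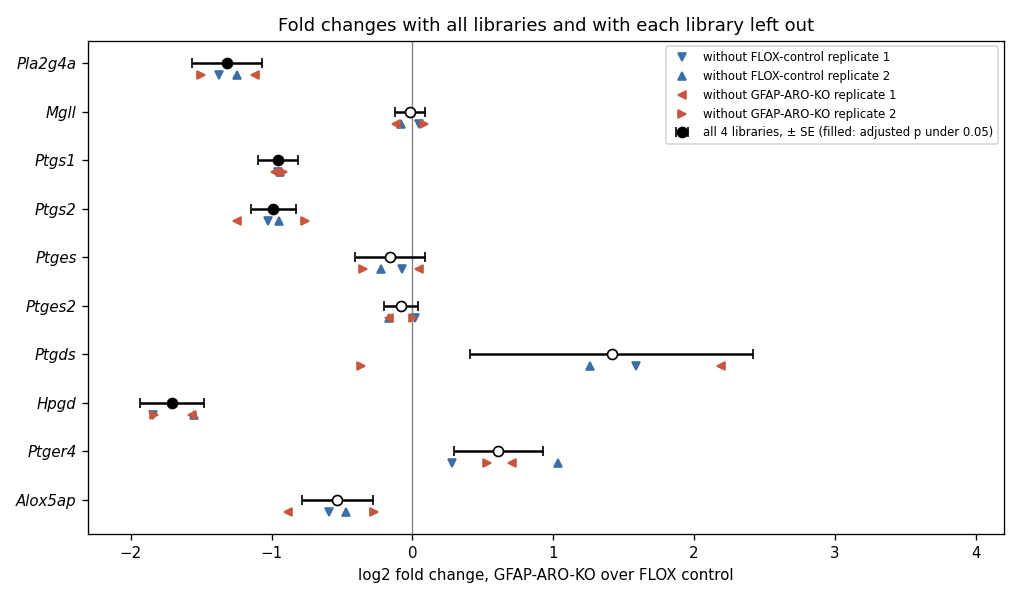
Log2 fold change of each gene, knockout over control, with all 4 libraries (circles with SE, filled where the adjusted p is under 0.05) and with each library left out (triangles). Hpgd, Pla2g4a, Ptgs1 and Ptgs2 stay below 0 in all of these fits, and Ptgds moves from 2.19 to -0.36 with the knockout library that is kept.

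Per kilobase of exon, the order of levels in the controls was Ptgds (240 CPM per kilobase), Mgll (48.9), Ptges2 (20.5), Ptgs2 (14.8), Alox5ap (5.34), Hpgd (4.82), Ptgs1 (4.56), Ptges (0.818), Pla2g4a (0.686) and Ptger4 (0.249). Among neighbours in this order, the control libraries of Alox5ap overlapped those of Hpgd, and those of Hpgd overlapped those of Ptgs1. In the knockouts Hpgd, at 1.49 CPM per kilobase, was below Ptgs1, at 2.35. Pla2g4a, at 0.279, was below Ptger4, at 0.380. Neither pair overlapped between genes in the knockout libraries.

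The wider pathway was read from 67 further genes in 7 lists, of which 54 could be tested. Of these 10 rose, 10 fell and 34 did not pass, against 9.39% of all tested genes higher and 11.0% lower. The 10 that rose include Ltb4r1, which had enough reads to be tested in the knockout libraries alone, so its call supports no count. The median log2 fold change of the 54 was 0.09. The calls depended on the control libraries, as did those over all genes. With either control library left out, fewer genes were called in each direction, in these lists and over all genes. The genes called under every alternative were 7 of the 20, namely Pla2g3, Pla2g4e, Pla2g6, Alox8, Alox12b, Aloxe3 and Naaa.

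**Figure D4:**
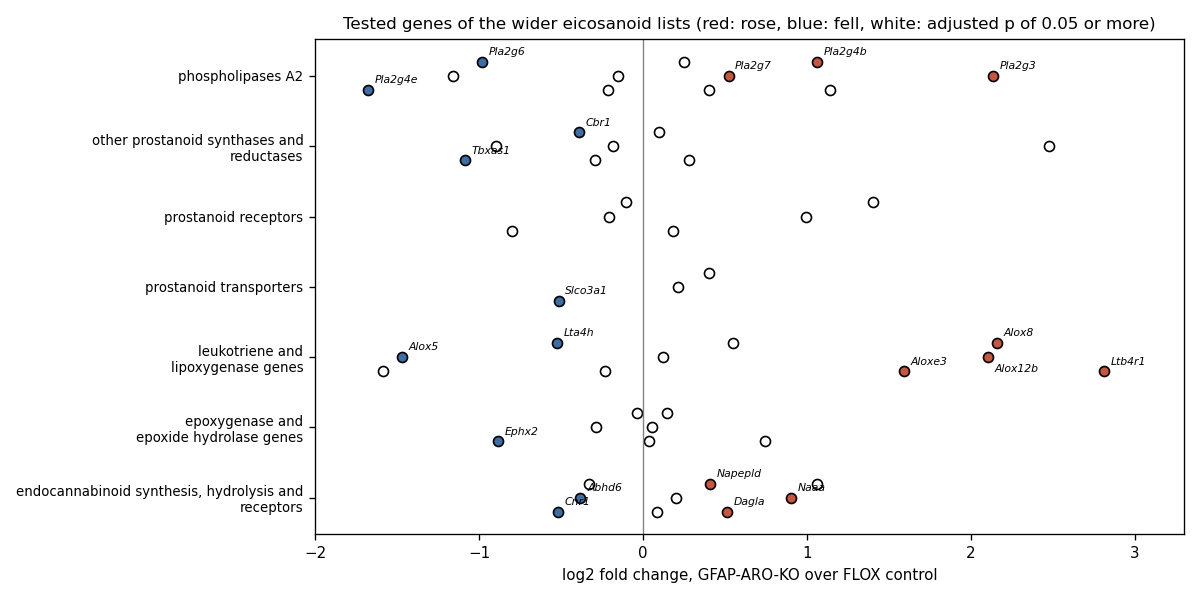
Log2 fold change, knockout over control, of the 54 tested genes of the 7 wider lists, 1 point a gene (red rose, blue fell, white did not pass; height within a list has no meaning). Calls go both ways among phospholipases, lipoxygenase genes and endocannabinoid genes, and none of the 6 tested prostanoid receptor genes is called (20.4% of all tested genes are).

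Among 11 tested phospholipase A2 genes besides Pla2g4a, 3 rose, 2 fell and 6 did not pass. The shares over all tested genes were 9.39% higher and 11.0% lower. Pla2g3, a secreted enzyme, rose from 4.0 and 2.88 CPM to 16 and 14.2 CPM (log2 fold change 2.14 ± 0.20, edgeR adjusted p = 0.00155). Pla2g4e, an enzyme of the cytosolic family that also acts as a calcium-dependent N-acyltransferase, fell from 35.5 and 26.2 CPM to 8.23 and 11.2 CPM, by 1.68 ± 0.21 (adjusted p = 0.00384). Pla2g6, the calcium-independent enzyme, fell from 34.1 and 33.8 CPM to 18.6 and 15.7 CPM, by 0.98 ± 0.13 (adjusted p = 0.00438). Pla2g7, the secreted hydrolase of platelet-activating factor and the most abundant of the list, rose from 112 ± 5.78 to 161 ± 6.85 CPM (SD, n = 2 each, edgeR adjusted p = 0.0119). It did not pass without the first control library (0.0974) or the second (0.0634). Pla2g4b, of the same cytosolic family as Pla2g4a and Pla2g4e, rose by 1.06 ± 0.30 from 28 and 30 reads to 65 and 51, with an adjusted p of 0.0448 that was lost under 9 of 13 alternatives (0.240 without the first control library, 0.205 without the second, 0.0637 without the first knockout and 0.0663 without the second).

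Of 8 tested prostanoid synthase and reductase genes beside the 10, 2 fell and 6 did not pass, against 11.0% of all tested genes lower. Tbxas1, thromboxane synthase, fell by 1.09 ± 0.28, from 2.21 and 2.57 CPM to 1.11 and 1.13 CPM (edgeR adjusted p = 0.0345). Cbr1, a carbonyl reductase that acts on prostaglandins among other substrates, fell by 0.39 ± 0.10 (adjusted p = 0.0372). The calls of these genes were lost without the first control library (0.126 and 0.188), the second (0.208 and 0.218) or the second knockout library (0.0578 and 0.0755), and that of Tbxas1 also with DESeq2 (0.112). By the mean over both groups, the most abundant gene of the list was 2810405K02Rik. It was at 51.3 ± 5.78 CPM in the controls against 54.8 ± 2.08 CPM in the knockouts (SD, n = 2 each, edgeR adjusted p = 0.583). Cbr1 was above it in the controls, at 59.3 CPM, and below it in the knockouts, at 45.3 CPM. Ptges3 has only 51.1% of its 50-base exon windows once in the genome, so its level here is uncertain. Akr1b3 was listed at 0 in 3 libraries and at 1 read in the fourth, although 78.1% of its windows occur once, and its level was not read. Ptges3 and Akr1b3 were singled out after their values were seen.

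No prostanoid receptor gene passed. Of 6 tested besides Ptger4, edgeR called 0, 1 had an unadjusted p under 0.05, and limma-voom and DESeq2 called 0. As edgeR called 20.4% of all tested genes, 0 of 6 is near that share. The most abundant by the mean over both groups, Ptger3, was at 1.57 ± 0.36 CPM in the controls against 0.899 ± 0.018 CPM in the knockouts (SD, n = 2 each, edgeR adjusted p = 0.130). Of 3 transporter genes, Slco3a1 fell by 0.51 ± 0.11, from 71.7 and 66.9 CPM to 52.1 and 44.9 CPM (adjusted p = 0.0215). It did not pass without the first control library (0.148) or the second (0.0919).

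Among 10 tested leukotriene and lipoxygenase genes, 4 rose (1 of them, Ltb4r1, from very few reads), 2 fell and 4 did not pass. Over all tested genes, 9.39% were higher and 11.0% lower. The 2 that fell serve the leukotriene branch that Alox5ap belongs to. Alox5, 5-lipoxygenase itself, fell by 1.47 ± 0.33, from 2.30 and 2.42 CPM to 1.05 and 0.603 CPM (edgeR adjusted p = 0.0225). Lta4h, which makes leukotriene B4, fell by 0.52 ± 0.12, from 47.9 and 52.1 CPM to 36.8 and 32.8 CPM (adjusted p = 0.0213). Neither passed with a control library left out (0.0959 for Alox5 and 0.0905 for Lta4h without the first, 0.115 and 0.162 without the second). The leukotriene B4 receptor gene Ltb4r1 had 4 and 1 control reads against 12 and 23 knockout reads (adjusted p = 0.0459). It passed the filter on low counts through the knockout libraries alone, so it had to differ to be tested, and its call supports no count. The call was lost with no filter (0.0554), with limma-voom (0.05003) and DESeq2 (0.0934), and without the first control library (0.129), the second (0.256) or the second knockout library (0.157). The most abundant gene of the list, the microsomal glutathione transferase gene Mgst3, was at 61.7 ± 3.08 CPM against 52.6 ± 0.634 CPM (SD, n = 2 each, edgeR adjusted p = 0.146).

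The other 3 that rose are neighbours on chromosome 11. Aloxe3 (68939398 to 68962617, plus strand, NCBIM37) and Alox12b (68970491 to 68983294, plus strand) encode lipoxygenases known from the skin barrier, and Alox8 (68997434 to 69011345, minus strand) the mouse 8-lipoxygenase. Aloxe3 was at 7.56 and 8.14 CPM in the controls and at 23.7 CPM in each knockout library. Alox12b was at 5.11 and 6.51 CPM against 27.9 and 21.9 CPM, and Alox8 at 1.73 and 1.74 CPM against 7.66 and 7.91 CPM. The groups were far apart for all 3, at 3.02-fold, 4.30-fold and 4.47-fold higher levels (edgeR adjusted p from 0.00123 to 0.00169). The flanking genes were looked at after these values were seen. Per1, a clock gene and the nearest tested gene on the Aloxe3 side, was at 95.9 and 74.0 CPM against 123 and 145 CPM and rose by 0.66 ± 0.15 (adjusted p = 0.0226), whereas Vamp2 beyond it (log2 fold change 0.15 ± 0.09, adjusted p = 0.251) and Gucy2e on the other side (0.56 ± 0.22, adjusted p = 0.114) did not pass. Per1 is separated from Aloxe3 by Hes7, which had 2 to 12 reads in each library and was not tested. None of the 3 lipoxygenase genes overlaps an annotated gene.

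**Figure D5:**
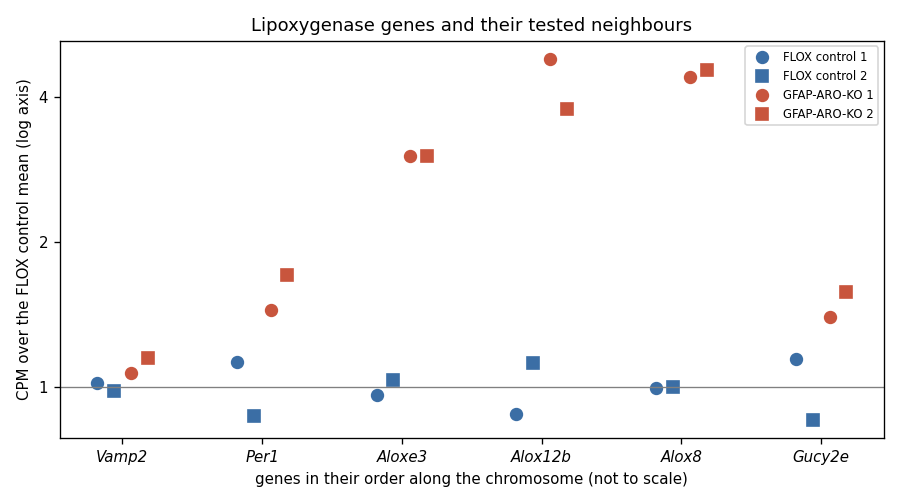
Level in each library over the mean of the FLOX controls (log axis) for Aloxe3, Alox12b, Alox8 and the tested genes beside them, in their order along the chromosome. The knockout libraries are highest for the 3 lipoxygenase genes and nearer to 1 for Vamp2, Per1 and Gucy2e.

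Of 7 tested epoxygenase and epoxide hydrolase genes, only Ephx2 passed, near the 20.4% of all tested genes called. Ephx2 encodes soluble epoxide hydrolase, which breaks down epoxides of arachidonic acid, and fell by 0.88 ± 0.15, from 20.2 and 18.4 CPM to 10.1 and 11.0 CPM (edgeR adjusted p = 0.00795). It missed the threshold with the first control library left out (0.0730). By the mean over both groups, the most abundant of the list was Ephx1. It was at 19.2 ± 5.26 CPM in the controls against 32.3 ± 9.70 CPM in the knockouts (SD, n = 2 each, edgeR adjusted p = 0.0899). In the controls alone Cyp2j6, at 23.6 CPM, and Ephx2, at 19.3 CPM, were above it.

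Among the 9 endocannabinoid genes around Mgll, 3 rose, 2 fell and 4 did not pass, against 9.39% of all tested genes higher and 11.0% lower. Dagla, the lipase that makes 2-arachidonoylglycerol, rose from 185 and 199 CPM to 281 and 268 CPM (log2 fold change 0.52 ± 0.09, edgeR adjusted p = 0.0113). Napepld, which makes N-acylethanolamines, rose by 0.41 ± 0.10 (adjusted p = 0.0302), and Naaa, a lysosomal amidase that breaks them down, rose by 0.90 ± 0.12 (adjusted p = 0.00441). Abhd6, a second hydrolase of 2-arachidonoylglycerol, fell by 0.38 ± 0.10 (adjusted p = 0.0353), and the cannabinoid receptor gene Cnr1 fell by 0.52 ± 0.10, from 280 and 309 CPM to 199 and 211 CPM (adjusted p = 0.0127). The most abundant, the hydrolase gene Abhd12, was at 399 ± 16.4 CPM in the controls against 424 ± 3.82 CPM in the knockouts (SD, n = 2 each, edgeR adjusted p = 0.523). With the first control library left out, Dagla (adjusted p = 0.0928), Napepld (0.150) and Abhd6 (0.171) did not pass. Without the second Dagla (0.0589), Napepld (0.219), Abhd6 (0.222) and Cnr1 (0.103) did not, and Abhd6 did not without the second knockout library (0.0700).

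Markers of other cells that express these genes were read in the same libraries. Of 10 markers of meningeal fibroblasts edgeR called 0, with 1 at an unadjusted p under 0.05, 0 called by limma-voom and 1 by DESeq2. Igf2, the most abundant of them by the mean over both groups, was at 25.8 and 37.0 CPM in the controls against 27.7 and 225 CPM in the knockouts. Dcn was above Igf2 in every library but the second knockout, where Dcn was at 103 CPM. Of all tested genes 9.39% were higher and 11.0% lower, and a count of 1 in the lists that follow is near those shares. Of 8 oligodendrocyte markers 5 fell and of 8 endothelial markers 2 rose and 1 fell. Of 8 astrocyte markers 1 rose and 2 fell, of 7 neuron markers 1 fell, and of 6 genes of hippocampal neurons 2 rose and 1 fell. Of 6 tested choroid plexus markers 2 rose, and of 7 mural markers 1 rose. The 6 markers of neutrophils and lymphocytes in the files summed to 0.239 and 0.551 CPM in the controls against 0.598 and 0.744 CPM in the knockouts, and Elane was at 0 in all 4 libraries. Ranked by the mean over both groups, the most abundant markers of 8 further lists were Camk2a, Neurod6, Mbp, Slc1a2, Slc2a1, Acta2, Kl and S100a8. Acta2 led the mural list only through the second knockout library, where it reached 114 CPM. Pdgfrb was above it in each of the other libraries, at 31.1 CPM against 14.9 CPM in the first knockout library.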

How the data were processed

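The deposited files hold raw read counts per gene symbol from the authors, 1 file a library. Per the labels' protocols, the RNA libraries were read from a single end. The submitters' processing notes name TopHat2 2.0.8b, HTSeq and the mm9 build, and runs were combined before alignment, per the series' design text. The sources used here do not give HTSeq's version, its annotation or its strand setting. The 5 tally rows, 45.2% to 47.3% of all entries, stayed out of library sizes and tests.

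Groups came from the titles. Genes passing filterByExpr (minimum count 10, minimum total 15), 15011 of 22609, were tested with edgeR 4.0.16 in R 4.3.3 (TMM, robust glmQLFit with legacy=FALSE, glmQLFTest), with Benjamini-Hochberg adjustment over all of them and a threshold of 0.05. SE came from the log2 fold change and its F statistic (change over root F). Exon lengths, coordinates and 50-base windows (exact matches, both strands, whole genome) came from NCBIM37 with GENCODE vM1, which held all 10 genes once. Alternatives were other scalings, filters, estimation settings, limma-voom 3.58.1, DESeq2 1.42.0, the replicate block, and each library left out, where the lone library of a group is assumed to vary like the other group.

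The genes and lists were chosen with earlier results of these data known. The text names all 10 genes, each gene of the wider lists past the threshold, the most abundant gene of each wider list and of each marker list (1 is not reported here), markers at 0, and Cyp19a1.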

Additional observations from a re-analysis of the deposited data

How the results depend on the processing

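Over all genes, 3061 were called with all libraries, and from 813 (without the second control library) to 4821 (without the first knockout library) with 1 left out. Of the 10 genes, with 1 library left out, from 0 to 1 were called higher and from 2 to 5 lower. Of the wider lists, from 5 to 14 were called higher and from 3 to 11 lower. The cause was not tested. The other scalings, filters, estimation settings and tools left each of these counts within 1.5 times its value, and no scaling moved the median of all genes by over 0.1.

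Signs turned for genes that did not pass. With 1 library left out, the log2 fold change ran from -0.35 to 0.050 for Ptges, from -0.17 to 0.017 for Ptges2, from -0.12 to 0.084 for Mgll, from -0.36 to 2.19 for Ptgds, from -2.17 to 2.05 for Ptgdr and from -0.27 to 2.28 for Ptgfr. The negative values of Ptgds, Ptgdr and Ptgfr were those without the second knockout library. Mgll was at 0.0060 with upper-quartile scaling, and Ptgdr at -0.16 with limma-voom. The causes were not tested.

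Replicate numbers are shared by the groups, but same-numbered libraries did not deviate together (correlation -0.017 over tested genes). With the replicate number as a block 3194 genes were called, 4 of the 10 genes fell and 0 rose, and 10 genes of the wider lists rose and 11 fell. DESeq2 alone among the tools called Ptgis (log2 fold change 2.56, adjusted p = 0.00381). Low counts limit Ptger4 (41 to 83 reads a library) and Ltb4r1 (1 to 23).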
